A study of Mus musculus with 2 samples.

Results

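Nkx6.1 binding was examined at 7 genes that mouse islets use to make insulin: Ins1, Ins2, Iapp, Pcsk1, Pcsk2, Slc30a8 and Ero1lb. A peak was assigned to a gene when its centre fell within a fixed mm9 window reaching about 100 kb to either side of that gene. By this rule 39 of the 15239 peaks in the list were assigned, and each of the 7 windows held at least 2. The study prepared 1 Nkx6.1 ChIP library and 1 input library from a single set of pancreatic islets of a mouse. The ChIP sample is labelled as normal islet of C57Bl/6 background, precipitated with the RES273 antibody against Nkx-6.1. The input sample is labelled as normal islet with no antibody, and its genetic background is not stated. The labels describe no treatment, age, sex or transgene. Whole islets hold several endocrine cell types, so the cell type behind a site is not resolved, and marker genes were not measured by this assay. There is no second library of either kind, so the values below have no replicate check, and intervals cover counting error only.

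Nkx6.1 is a homeodomain transcription factor of the beta cell, required for that cell's identity and for insulin secretion. Homeodomain proteins of this kind recognise AT-rich DNA built around the letters TAAT. Insulin is made as a prohormone, folded with disulfide bonds in the endoplasmic reticulum, cut by the prohormone convertases in the secretory granule, and stored there as crystals with zinc. The 7 genes cover these steps: the hormones Ins1, Ins2 and Iapp, the convertases Pcsk1 and Pcsk2, the granule zinc transporter Slc30a8, and the disulfide-forming oxidase Ero1lb, whose current symbol is Ero1b.

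RefSeq promoter sequences were at hand for 5 of the 7 genes, namely Ins1, Iapp, Pcsk1, Pcsk2 and Ero1lb. The 4 shown are those of the genes with a peak in, or within about 1 kb of, the gene part of the window. They range from several TAAT matches to none. Each line gives the 250 bases before the start site, 5′ to 3′, with TAAT on either strand in capitals.
Ins1 (GRCm38.p6, chr19:52264047-52264296, + strand): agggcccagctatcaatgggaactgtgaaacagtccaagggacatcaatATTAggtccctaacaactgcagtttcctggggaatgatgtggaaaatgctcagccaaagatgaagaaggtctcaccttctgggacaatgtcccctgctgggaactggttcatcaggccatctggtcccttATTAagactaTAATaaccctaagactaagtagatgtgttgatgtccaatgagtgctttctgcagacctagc
Iapp (GRCm38.p6, chr6:142298175-142298424, + strand): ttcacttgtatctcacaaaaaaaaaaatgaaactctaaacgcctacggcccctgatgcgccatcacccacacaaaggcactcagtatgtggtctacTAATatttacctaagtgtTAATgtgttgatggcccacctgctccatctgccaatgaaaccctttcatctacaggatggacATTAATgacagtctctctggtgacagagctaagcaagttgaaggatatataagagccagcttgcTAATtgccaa
Pcsk2 (GRCm38.p6, chr2:143545883-143546132, + strand): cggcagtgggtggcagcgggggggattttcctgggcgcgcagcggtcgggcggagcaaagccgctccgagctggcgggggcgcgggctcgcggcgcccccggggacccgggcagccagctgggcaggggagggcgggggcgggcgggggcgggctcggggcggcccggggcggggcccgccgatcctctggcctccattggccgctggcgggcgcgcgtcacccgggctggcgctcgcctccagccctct
Ero1lb (GRCm38.p6, chr13:12565633-12565882, + strand): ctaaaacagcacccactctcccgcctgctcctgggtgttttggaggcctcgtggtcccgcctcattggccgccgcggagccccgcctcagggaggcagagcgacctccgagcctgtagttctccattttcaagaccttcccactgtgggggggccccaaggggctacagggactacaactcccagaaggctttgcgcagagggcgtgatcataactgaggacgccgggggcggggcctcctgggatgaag
These coordinates belong to GRCm38.p6, a different build from the mm9 peak list, so no distance from a peak to a start site was taken. TAAT was searched on both strands, so ATTA counts as a match. The Ins1 promoter held 3 matches, whose first bases lay at -201, -71 and -61 from the start site. The Iapp promoter held 5, with first bases at -154, -136, -74, -72 and -10. Those at -74 and -72 overlap and read together as ATTAAT. The Pcsk1 promoter held 1 match, at -153, and the Ero1lb promoter held 0, as did that of Pcsk2. Base composition differed as well, with 82.4% G and C in the Pcsk2 promoter against 46.4% in Ins1 and 42.8% in Iapp. Of 32851 promoters of this length, 54.9% held TAAT, 17.3% held 3 or more matches and 5.54% held 5 or more. The longer letters TAATTA were in none of the 5 promoters, against 4.84% of all, and TTAATTA was in none of the 5, against 2.78%. A match is a description of the letters and was not tested as a binding site.

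ChIP tags, a fold over input and a local fold describe each peak. ChIP tags are whole tags recovered from the deposited tag column, given with a 95% Poisson interval. The fold is the deposited ratio of scaled ChIP tags to input tags. Where the input count was under 21.4, the caller's minimum stands in its place, and the fold is then a lower limit. The local fold is the deposited ratio to the surrounding 10 kb. The term gene part means the window less 100 kb at each end, which marks the gene to about 10 kb because the windows are rounded. Peaks were not assigned to exons, introns or intergenic sequence, as mm9 gene models were not used here.

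**Figure D1:**
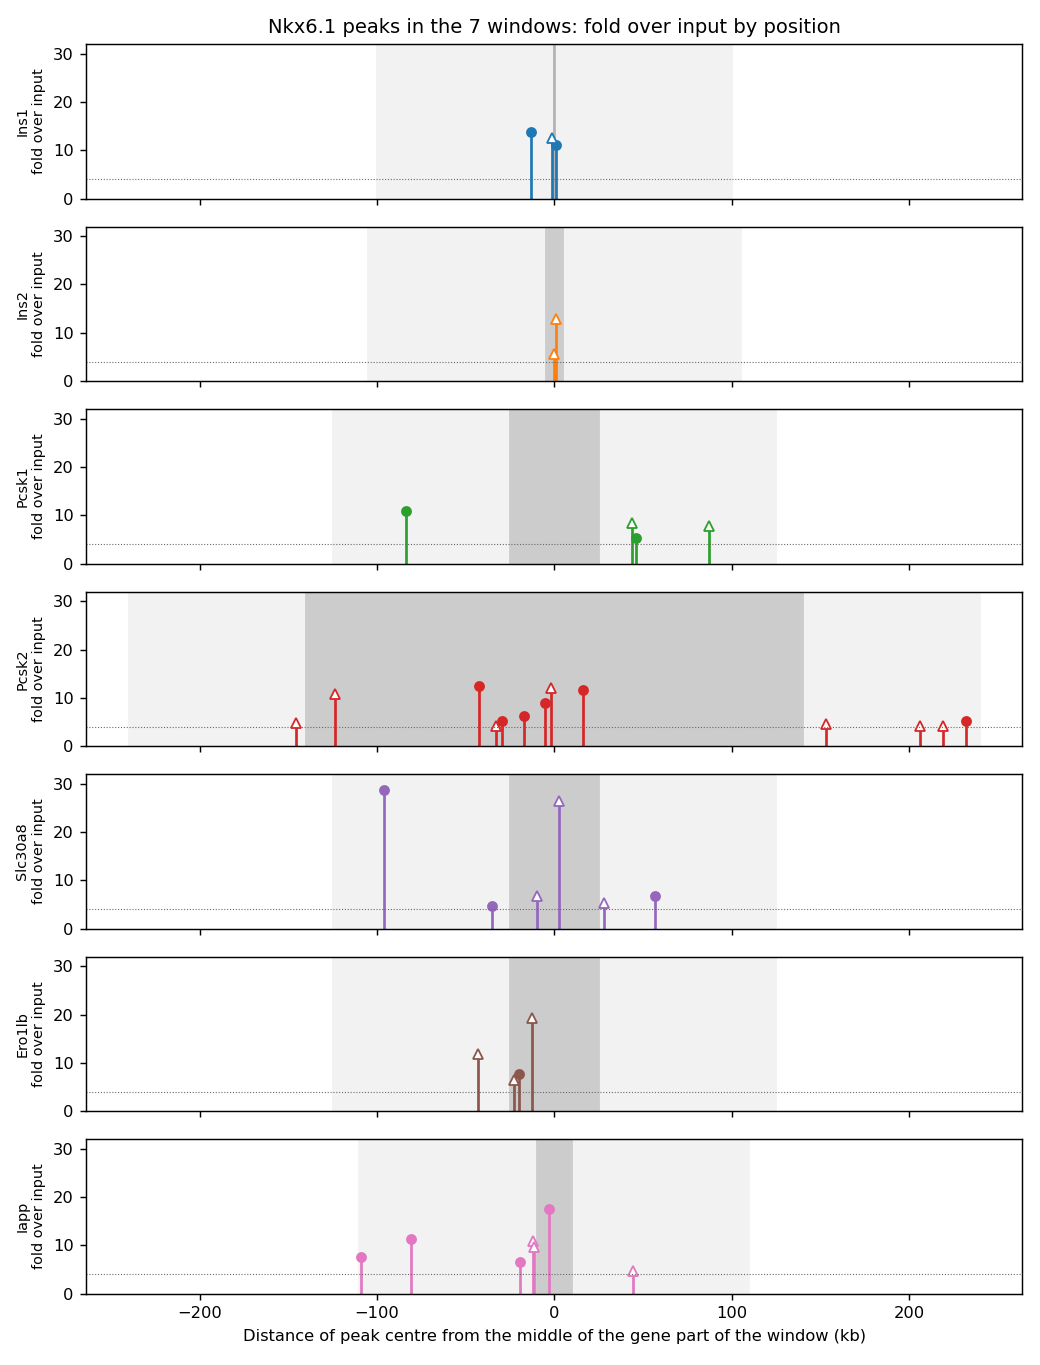
Fold over input (vertical axes, linear) of each peak against the distance of its centre from the middle of the gene part, in kb, with 1 panel per gene. Light grey is the window and dark grey the gene part (a line for Ins1), filled circles have a counted input, open triangles are lower limits, and the dotted line is the caller's 4-fold requirement; the 2 sites of Slc30a8 at 28.8-fold and 26.4-fold stand highest.

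Both insulin genes had sites in or near the gene part, which places them only to about 10 kb. Ins1 (gene ID 16333) is an insulin gene of rodents that arose as a retroposed copy of the ancestral gene, and its window held 3 peaks within 13.7 kb. The peak on chromosome 19 at 52340698 to 52340830 had 530 ChIP tags (486 to 577) over 38 input tags, a fold of 11.0 (exact conditional interval 7.91 to 15.7). It ranked 527 of 15239 by score. A second peak, 2.04 kb away at 52338657 to 52338789, had 338 tags (303 to 376) and a fold of at least 12.4. These 2 centres lay 0.764 and 1.28 kb from the rounded gene point of the window. As that point marks the gene only to about 10 kb, it does not show on which side of Ins1 they lie. The remaining peak, at 52327016 to 52327148, lay 11.6 kb from its neighbour and had 399 tags (361 to 440) over 23 input tags, a fold of 13.7 (8.98 to 21.8). All 3 Ins1 peaks passed 8-fold, a level reached by 24.1% of the whole list. The fold intervals of the 530-tag and 399-tag Ins1 peaks overlapped. The RefSeq neighbours of Ins1 are Sorcs1 and Xpnpep1.

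Ins2 (gene ID 16334), the ancestral insulin gene, had 2 peaks and both lay in the gene part, 1.2 kb apart. The peak on chromosome 7 at 149865750 to 149865882 had 347 tags (311 to 386) and a fold of at least 12.8. Its level in tags overlapped that of the 338-tag peak beside Ins1. The other, at 149864555 to 149864687, had 150 tags (127 to 176) and a fold of at least 5.52. Its local fold of 4.4 was close to the required 4, and 84.6% of the list scored as high or higher. This weaker Ins2 peak also stood apart in how its tags were placed. Its clonal fold, the caller's measure of how far the tags fell short of the expected number of distinct positions, was 1.91. That was the value ranked 2 in the list, where the median was 0.86 and peaks above 2 were removed by the caller. Its score was 0.84 of its ChIP tags, against a median ratio of 1.01, and 11 peaks in the list were that low or lower. The caller considers at most 10 tags per position, and what gave these Ins2 values was not tested. Without it, Ins2 keeps 1 peak. The RefSeq neighbours of Ins2 are Igf2 and Th. Ins1 and Ins2 share much of their coding sequence, and the handling of tags that match both is not stated in the labels or headers.

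**Figure D2:**
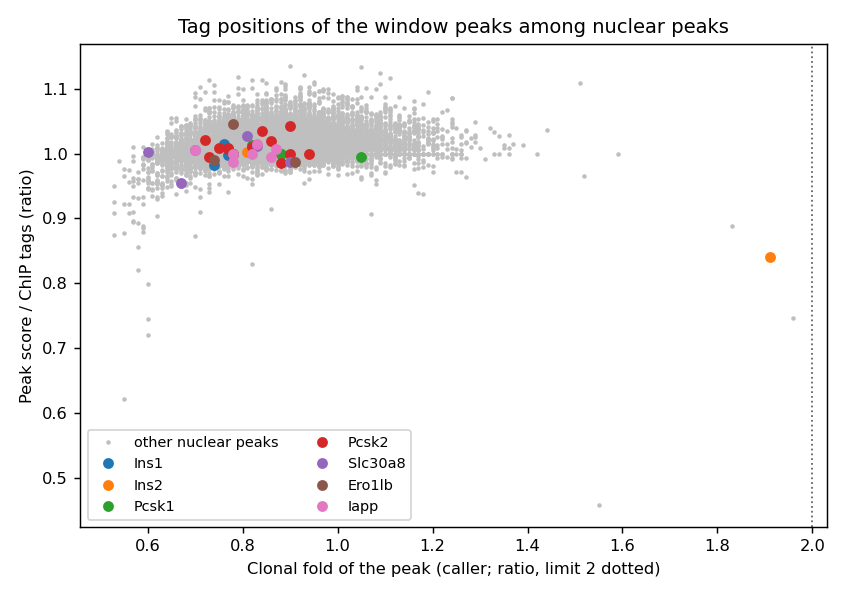
Score divided by ChIP tags (vertical axis, ratio) against the clonal fold (horizontal axis, ratio) for nuclear peaks, with the window peaks coloured by gene and the caller's limit of 2 dotted. The weaker Ins2 peak lies at 1.91 and 0.84, while the other 38 window peaks have clonal folds of at most 1.05.

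Iapp (gene ID 15874) encodes amylin, a peptide that beta cells store and release with insulin. Its window held 7 peaks, 4 of them within 16.2 kb in or near the gene part. The strongest lay in the gene part, on chromosome 6 at 142246810 to 142246942, with 488 tags (446 to 533) against 22 in input, which gives 17.5-fold (11.4 to 28.2). A pair 399 bp apart lay just before the gene part, at 142238039 to 142238171 with 299 tags (266 to 335) and at 142238438 to 142238570 with 265 tags (234 to 299). Both had input at the minimum, with folds of at least 11.0 and 9.75. The peak at 142230589 to 142230721 had 354 tags (318 to 393), but its input of 42 tags was the highest among the 39 peaks, and its fold was 6.64 (4.82 to 9.38). By ChIP tags it was thus above the close pair, though its interval overlapped that of the 299-tag peak. By fold it was below both. Farther out were peaks at 142169069 to 142169201, with 344 tags and a fold of 11.3 (7.47 to 17.9), and at 142140684 to 142140816, with 297 tags and a fold of 7.55 (5.21 to 11.3). The latter centre lay 0.75 kb inside the window edge. The weakest, at 142294051 to 142294183 beyond the gene part, had 131 tags (110 to 155) and a fold of at least 4.82. The neighbouring protein-coding genes are Slco1a5 and Pyroxd1 in the RefSeq order, and an Iapp window peak may lie nearer to one of them.

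At the convertase genes, 0 of 4 peaks lay in the 50 kb gene part of Pcsk1 and 8 of 13 in the 280 kb gene part of Pcsk2. Pcsk1 (gene ID 18548), which makes an early cut in proinsulin, had its nearest pair of peaks 19.0 and 21.1 kb past the gene part, on chromosome 13 at 75298898 to 75299030 with 230 tags (201 to 262) and at 75300995 to 75301127 with 176 tags (151 to 204). Their folds were at least 8.46 for the first and 5.34 (3.52 to 8.4) for the second. The strongest Pcsk1 peak lay 58.5 kb before the gene part, at 75171403 to 75171535, with 302 tags (269 to 338) against 22 in input, or 10.8-fold (7.02 to 17.5). The fourth, at 75342032 to 75342164, had 212 tags (184 to 243) and a fold of at least 7.8. The RefSeq neighbours of Pcsk1 are Cast and Ell2.

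Pcsk2 (gene ID 18549), which completes the cutting of proinsulin and also processes proglucagon, had the widest window, of 480 kb. In the gene part, 7 of the 8 peaks followed each other over 58.4 kb, from 143467441 to 143525982 on chromosome 2. Within that run the tags went from 111 to 441 and the folds from 4.08 to 12.4. Its first peak, at 143467441 to 143467573, was the strongest of the locus with 441 tags (401 to 484) against 28 in input, or 12.4-fold (8.47 to 18.9). Its last, at 143525850 to 143525982, had 383 tags (346 to 423) against 26 in input, or 11.6-fold (7.8 to 18). The peak nearest the middle of the gene part, at 143508016 to 143508148, had 327 tags (293 to 364) and a fold of at least 12.0. Between them, the peak at 143477229 to 143477361 was the weakest of the 39, with 111 tags (91.3 to 134), a fold of at least 4.08 and a local fold of 4.1. It passed both 4-fold requirements narrowly. The other 3 peaks of the run had 212 to 263 tags and folds of 5.3 to 9.01. A peak 81.0 kb before the run, at 143386433 to 143386565, had 293 tags (260 to 329) and a fold of at least 10.8. Another peak, at 143364049 to 143364181 and 5.88 kb before the gene part, had 133 tags (111 to 158) and a fold of at least 4.89. After the run no peak was listed for 137 kb. The 4 peaks beyond the gene part had 114 to 206 tags and deposited folds of 4.2 to 5.24. The 3 with fewest tags, 114 to 126, had input at the minimum, so their folds are lower limits. The next protein-coding gene on that side in the RefSeq order is Bfsp1.

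Slc30a8 (gene ID 239436) encodes ZnT8, the transporter that loads zinc into insulin granules. Its window held 6 peaks, 0 of which had another peak within 10 kb. The 2 strongest of the 39 peaks were here. The peak on chromosome 15 at 52048955 to 52049087 had 804 tags (749 to 862) over 22 input tags, a fold of 28.8 (18.9 to 46.2) that ranked 108 of 15239. It lay 71.0 kb before the gene part. The peak at 52147807 to 52147939, in the gene part, had 718 tags (666 to 772) and a fold of at least 26.4, ranked 141. Their tag intervals overlapped. The shape of the 2 sites differed in the deposited columns. The outer site stood 44.7-fold over its surrounding 10 kb with a focus ratio of 0.899. This fraction is the caller's summary of where plus-strand and minus-strand tags lie relative to the middle of a peak. The site in the gene part stood 16.2-fold over its surroundings with a focus ratio of 0.617. Of the whole list, 2.68% had a focus ratio that low or lower, although the site was among the top 1.15% by score. The other 4 Slc30a8 peaks had 147 to 238 tags. They included 1 more in the gene part, at 52135073 to 52135205, with 184 tags (158 to 213) and a fold of at least 6.77. The lowest score belonged to the peak at 52172868 to 52173000, with 147 tags (124 to 173) and a fold of at least 5.41. The remaining ones, at 52201675 to 52201807 with 238 tags and at 52109963 to 52110095 with 170 tags, had folds of 6.7 (4.52 to 10.3) and 4.62 (3.1 to 7.11). The RefSeq neighbours are Aard and Med30, and the outer site was not assigned between them and Slc30a8.

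Ero1lb (gene ID 67475) encodes an oxidase of the endoplasmic reticulum that supplies disulfide bonds to folding proteins and is abundant in the pancreas. Its 4 peaks lay within 30.4 kb, and 3 were in the gene part within 10.1 kb. The strongest, on chromosome 13 at 12662209 to 12662341, had 523 tags (479 to 570) and a fold of at least 19.2. Before it came peaks at 12654735 to 12654867, with 227 tags (198 to 259) against 23 in input, or 7.78-fold (5.06 to 12.5), and at 12652146 to 12652278, with 176 tags (151 to 204) and a fold of at least 6.48. The fourth lay 18.1 kb before the gene part, at 12631825 to 12631957, with 321 tags (287 to 358) and a fold of at least 11.8. The sites thus gathered toward the lower-coordinate end of the Ero1lb gene part. Its RefSeq neighbours are Edaradd on that side and Prl2c3 on the other, and the sites were not assigned between these genes.

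Ordered by the ChIP tags of the strongest site, the genes were Slc30a8 with 804 tags, Ins1 with 530, Ero1lb with 523, Iapp with 488, Pcsk2 with 441, Ins2 with 347 and Pcsk1 with 302. The intervals of Ins1, Ero1lb and Iapp overlapped. That of Pcsk2 overlapped those of Ero1lb and Iapp, and those of Ins2 and Pcsk1 overlapped. In ChIP tags, Slc30a8 lay above Ins1, and Pcsk2 above Ins2, without overlap of their Poisson intervals. These intervals treat each tag as a separate count, although the caller considers up to 10 tags per position. The order by highest deposited fold was different after Slc30a8 (28.8), with Ero1lb (at least 19.2), Iapp (17.5), Ins1 (13.7), Ins2 (at least 12.8), Pcsk2 (12.4) and Pcsk1 (10.8). The fold intervals of Iapp (11.4 to 28.2), Ins1 (8.98 to 21.8), Pcsk2 (8.47 to 18.9) and Pcsk1 (7.02 to 17.5) overlapped one another. The order of these genes by fold is thus within counting error. The interval of Slc30a8 (18.9 to 46.2) overlapped those of Iapp and Ins1. Ero1lb and Ins2 have lower limits without an interval, so their places in this order are not settled, including that of Ero1lb below Slc30a8. Each gene also has a peak whose fold is a lower limit, such as at least 12.4 at Ins1. The true fold of such a peak may exceed the one listed. The windows hold different numbers of peaks, so a strongest site is picked from 2 peaks at Ins2 and from 13 at Pcsk2. At Slc30a8 and Pcsk1 that site lay 71 and 58.5 kb before the gene part. Both orders are thus of windows, and the sites were not assigned to genes.

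**Figure D3:**
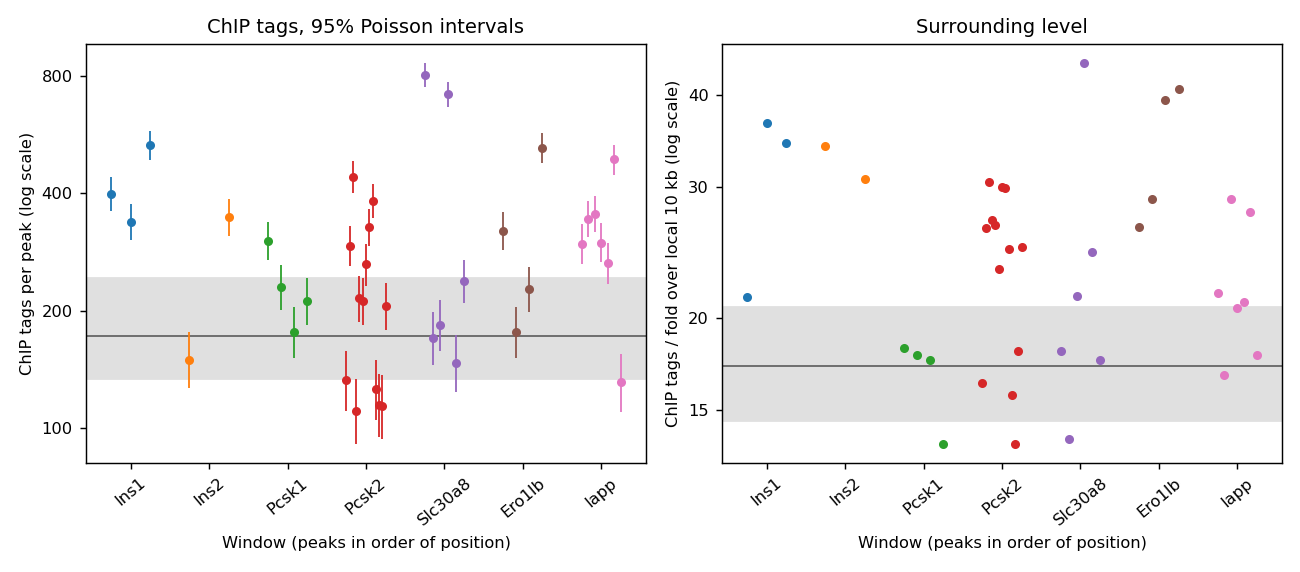
Left, ChIP tags of each window peak (log axis) with 95% Poisson intervals; right, ChIP tags divided by the local fold (log axis), a measure of the level in the surrounding 10 kb; peaks are in order of position within each gene. The grey band spans the quartiles and the line the median of all 15239 peaks, and the Slc30a8 points at 804 and 718 tags and 44.2 on the right are the highest.

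As a description beside the whole list, the 39 peaks had more tags and higher deposited folds. Their median deposited fold was 7.8 and that of all peaks was 5.63. Both medians take lower limits at their deposited value, so the true medians may be higher. By gene the median deposited fold was 5.3 at Pcsk2, below that of the list, 6.73 at Slc30a8, 8.13 at Pcsk1 and 9.14 at Ins2. It was 9.75 at Iapp, 9.79 at Ero1lb and 12.4 at Ins1. Of the 39, 19 reached 8-fold, or 48.7%, beside the 24.1% of all peaks given above. At 5-fold the counts were 32 of 39 against 64.5% of the list, and at 20-fold 2 of 39, both at Slc30a8, against 2.32%. The median peak held 263 ChIP tags, and 172 in the whole list. By score, 29 of the 39 (74.4%) lay above the median of the list, 175, as did 49.5% of all peaks. All 3 peaks of Ins1 reached 8-fold, as did 1 of 2 at Ins2, 4 of 7 at Iapp, 2 of 4 at Pcsk1, 5 of 13 at Pcsk2, 2 of 6 at Slc30a8 and 2 of 4 at Ero1lb. Input stood at the minimum for 21 of the 39 peaks, or 53.8%, against 67.1% of the list. Lower limits thus enter the medians and counts of the 2 sides in different shares, and the effect on the comparison was not tested. Where it was above the minimum its median was 26.5 tags, and 27 in the list. The genes were chosen with results of these data known, so no test of these differences was made.

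The windows also held many peaks for their size. Over 1.86 Mb in all there were 21.0 peaks per Mb, beside 6.28 over the autosomes. In the gene parts, 16 peaks lay in 0.46 Mb, or 34.8 per Mb, and in the flanks 23 lay in 1.40 Mb, or 16.4 per Mb. The gene parts differed: Pcsk2 held 8 of the 16 peaks in 280 kb, and Pcsk1 held 0 in 50 kb. That of Ins1 has no width after rounding, so its peaks count as flank. Tiles of the same width laid end to end over the 19 autosomes give each window its background. At least 1 peak was listed in 54.4% of tiles as wide as the Ins1 window, 56.3% for Ins2, 56.9% for Iapp, 60.8% for Pcsk1, Slc30a8 and Ero1lb, and 76.2% for Pcsk2. For Pcsk2, 1.08% of tiles held 13 or more peaks, for Iapp 1.84% held 7 or more, and for Slc30a8 4.68% held 6 or more. Counts of 4 at Pcsk1 and at Ero1lb were met by 14.4% of tiles, and 3 at Ins1 by 18.4%. The 2 peaks of Ins2 were met by 33.5% of tiles, so its count is an ordinary one for a window of 210 kb. Tiles include sequence to which tags cannot be aligned and stretches without genes. Of the 39 peaks, 18 had another peak within 10 kb, or 46.2%, against 28.1% of nuclear peaks. This share depends on the number of peaks per Mb, so it is not a separate observation.

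**Figure D4:**
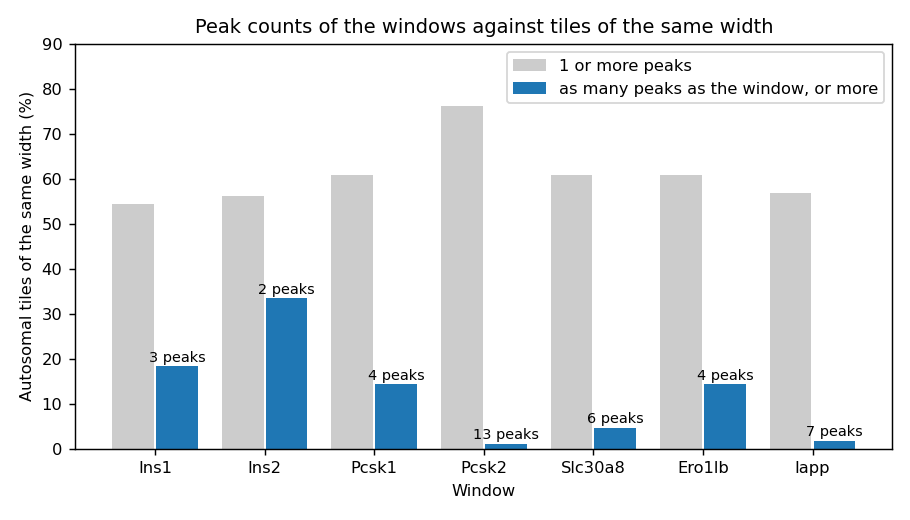
Share of autosomal tiles as wide as each window (vertical axis, percent, from 0) that held 1 or more peaks (grey) or at least as many peaks as the window (blue, with the count above). The blue bars run from 1.08% for Pcsk2 to 33.5% for Ins2.

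Peaks at these genes tended to stand on a raised ChIP level. Dividing the ChIP tags of a peak by its local fold gives the level of its surrounding 10 kb, in tags, which has a lowest value of 13.5 in the list. Many peaks share this value, which lies near the 13.3 tags that the caller expected per peak. Whether it is a floor that makes the local fold there a lower limit was not tested. The median was 24.5 for the 39 peaks and 17.2 for all. Above the upper quartile of the list, 20.7, were 25 of the 39, or 64.1%, where the list has 25% by construction. The highest were 44.2 at the Slc30a8 site in the gene part, 40.8 at the strongest Ero1lb site and 39.4 at its neighbour, and 36.7 and 34.5 at the close Ins1 pair. The 2 Ins2 peaks had 34.1 and 30.8. All 4 Pcsk1 peaks, none of which was in the gene part, lay between 13.5 and 18.2. Peaks in gene parts had a median of 29.4 (16 peaks, 8 of them at Pcsk2) and those in flanks 18.0 (23 peaks). The Ins1 gene part has no width after rounding, so the close Ins1 pair counts as flank. So does the Iapp pair, 1.5 and 1.9 kb from its gene part. The median local folds ran the other way, at 10 and 12.4. Median tags were 278 and 238, and the level is tags divided by local fold, so this is not a separate observation. The surrounding 10 kb can include a neighbouring peak, and the part this plays was not tested. The Iapp pair 399 bp apart had levels of 20.6 and 21.0, and the Slc30a8 site at 44.2 had no peak within 10 kb. The outer Slc30a8 site, the strongest of the 39 with 804 tags, had a level of 18.0.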

How the data were processed

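Per the file headers, HOMER findPeaks (factor style) called the peaks from ChIP tags, with the input library as control. Bowtie, HOMER and the mm9 build are named in the submitters' processing notes, without versions or settings. As the headers state, the ChIP library held 202780986 tags, peaks are 133 bp wide, the false discovery rate was 0.001, and 4-fold over input and over the surrounding 10000 bp was required.

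The authors deposited a ChIP tag signal that steps by 0.788, and division by this value returned whole numbers for 100% of peaks (tolerance 0.1 tag). The deposited input signal is whole or stands at its minimum of 21.4. The deposited fold over input, local fold and clonal fold are ratios, the focus ratio is a fraction, the score and the Poisson p-value are the caller's, and the normalized tag signal of the authors is scaled to 10000000 tags. The p-value and the normalized signal are not printed here.

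Windows came from the rule of membership. The members and lists were chosen with earlier results of these data known, and no p-value was computed. Folds with a counted input carry an exact conditional interval and tags a Poisson interval, at 95%. All peaks were named where a window held 5 or fewer; otherwise the 3 highest scores, the lowest score and the peak nearest the gene part were named, with ties broken by distance to its middle, and further ones were added after their values were seen. Gene names and order came from RefSeq (GRCm38.p6), in which 7 of 7 names matched. Window counting and intervals were tested on simulated data. The alternatives were stricter peaks, other window widths and neighbour distances, 1 added tag and shifted tiles. Scripts ran in Python 3.11.15 with scipy 1.17.1, numpy 2.4.6, matplotlib 3.10.9 and pandas 2.3.3.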

Additional observations from a re-analysis of the deposited data

How the results depend on the processing

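The count of 39 peaks was 39 with any overlap, 29 above the median score, 31 with windows drawn in by 50 kb and 46 with windows widened by 100 kb. It fell to 19 at 8-fold or more and to 18 with input above the minimum. At 8-fold or more, Ins2 had 1 peak, Pcsk1 2, Pcsk2 5, Slc30a8 2, Ero1lb 2 and Iapp 4, while Ins1 stayed at 3. Above the median score, Ins2 had 1 and Pcsk2 8. With windows drawn in, Pcsk1 had 2. The median fold of 7.8 ranged from 7.5 with 1 tag added to each side to 9.11 without the Pcsk2 window, which was added after the data were seen. Without Pcsk2, 14 of 26 peaks (53.8%) reached 8-fold. A neighbour within 25 kb was found for 29 of the 39 peaks, against 48.4% of nuclear peaks, and within 5 kb for 14, against 18.4%. Leaving out peaks of clonal fold 1.5 or more, also added later, removed 1 peak and left 16 with a neighbour within 10 kb. With shifted tiles the tile share was 0.966% for Pcsk2, 1.7% for Iapp and 33.4% for Ins2. No paired analysis was possible because ChIP and input share only 1 replicate number. The planned count at other genes of insulin making was not run, as gene positions on mm9 were not used here. The list starts at 109 ChIP tags, and the minimum placed on input limits 21 of the 39 folds.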

Other observations

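The windows differed in how far the next listed peak lay outside them. Beyond the upper edge of the Ero1lb window no peak was listed for 866 kb, and beyond that of Ins1 for 719 kb, where the next peaks had folds of 5.89 and 6.73. On the lower side of Ins1 the next peak was 117 kb outside the window, on chromosome 19 at 52123261 to 52123393, with 349 tags and a fold of 12.8. Slc30a8 had a peak 15.8 kb below its window with a fold of 5.08, and Pcsk2 one 19.3 kb below with a fold of 6.96. The Ins2 window had its nearest outside peaks 71.2 kb below and 114 kb above, at 7.69-fold and 7.18-fold. Empty stretches were not corrected for sequence to which tags cannot be aligned.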
